A study of Macaca mulatta with 6 samples.

Results

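HYOU1 and 9 other genes of protein folding in the endoplasmic reticulum were followed over the day in the macaque adrenal gland. HYOU1 was chosen by its measured values: in an earlier 24-h fit of these arrays it was among the genes with the clearest curve. The other genes, HSPA5, HSP90B1, CALR, CANX, PDIA3, PDIA4, PDIA6, DNAJB9 and XBP1, were listed by function to be set beside it. A probe set is a group of short probes summarised as 1 value. Every probe set whose platform annotation names any of the 10 genes was taken. This gave 22 of the 22215 probe sets that are not controls. HYOU1 has 1 of them, and HSPA5, PDIA3 and XBP1 also have 1 each.

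The left adrenal of 6 ovariectomized female rhesus macaques was collected, from 1 animal at each of 6 clock times 4 h apart, to ask how expression in a primate adrenal varies over the day. All animals had been housed for 3 months with 12 h of darkness in each 24 h and 2 meals a day, and had not eaten for 12 h. The animals taken at 3 AM and 7 AM were 12 years old, the one at 11 AM 10 years and 37 days, the one at 3 PM 8 years and 106 days, the one at 7 PM 7 years and 82 days and the one at 11 PM 8 years and 70 days. Clock time, animal and array are therefore the same unit, no time has a second animal, and the sources used here do not say when the lights came on. RNA was labelled and hybridised to a human Affymetrix array, and a probe set can read low where the monkey's transcript departs from the human one, so levels are compared only within a probe set.

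The endoplasmic reticulum is where secreted and membrane proteins fold. HSPA5, also called BiP, and HSP90B1, also called GRP94, are its abundant chaperones, and HYOU1, a large relative of the Hsp70 proteins, exchanges nucleotide on HSPA5 and holds unfolded chains itself. Calnexin (CANX) and calreticulin (CALR) bind proteins that carry trimmed sugars, disulphide isomerases such as PDIA3 join and rearrange their disulphide bonds, and the unfolded protein response, in part through the transcription factor XBP1, raises many of these genes together when unfolded protein accumulates. In the adrenal the same compartment makes the steroid hydroxylases of the cortex that sit in its membrane and the granule proteins of the chromaffin cells.

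The arrays resembled each other, with correlations of log2 values from 0.916 to 0.928 across probe sets, which are not independent replicates. Adrenal markers were present on every array: CYP17A1, the steroid 17-hydroxylase, lay between 28646 and 40394 and TH, the first enzyme of catecholamine synthesis, between 1903 and 8245. STAR, which brings cholesterol into mitochondria for steroid synthesis, lay between 9833 and 16413, and PNMT, which makes adrenaline, between 936 and 3597. The geometric mean of the hybridisation controls, RNAs spiked in at known amounts, was 948 to 1101 on 4 arrays but 542 at 3 AM and 669 at 3 PM. For the GAPDH control the 3'/5' ratio, a sign of RNA integrity, ran from 0.721 at 7 AM to 1.16 at 3 PM. For the ACTB control it ran from 0.610 at 3 PM to 0.819 at 3 AM. It was lowest at 3 PM and 11 AM (0.613), the arrays on which HYOU1 was highest. Next lowest was 11 PM (0.675), the array on which HYOU1 was lowest. The part of this ratio in the HYOU1 values was not tested.

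HYOU1 was high around midday and low at night. Its intensity was 536 at 3 AM, 623 at 7 AM, 1696 at 11 AM, 1491 at 3 PM, 925 at 7 PM and 424 at 11 PM. The largest step up was between 7 AM and 11 AM, the decline took the afternoon and evening, and the 3 AM and 7 AM arrays lay slightly above the one at 11 PM. A cosine with a period of 24 h, fitted to log2(intensity + 1), put the peak at clock hour 13.4 ± 0.62 (SE) with a peak 4.04 times the trough, a log2 difference of 2.01 ± 0.33 (SE, n = 6 arrays) and an R2 of 0.922. Of 7164 genes tested, 34 had a larger fitted difference. These values chose the gene, so they stand as a description and no test is attached to them. All 7 chromaffin cell markers tested also had a fitted peak within 3 h of that of HYOU1, against 26.4% of all genes. Their part in its curve was not tested. In whole tissue, fewer cells that carry a transcript and less of it per cell cannot be told apart.

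The size of the HYOU1 curve varied with the arrays used, and its timing little. With 1 array left out in turn the log2 difference ran from 1.80, without 11 AM, to 2.37, without 3 AM, and the peak from clock hour 12.6 to 13.7. Without both the 3 AM and 3 PM arrays, which had the lowest hybridisation controls, the ratio was 6.48 in place of 4.04. Animal age correlated with HYOU1 at r = -0.25 over the 6 arrays, and a fit that includes age gave 2.57 ± 0.98 (SE) with a peak near clock hour 15. The log2 differences of 2.37 and 2.57 and the ratio of 6.48 lie beyond the measured span of HYOU1. That span was 2.00 on the log2 scale, or 4.00-fold, so these fits reach past the data.

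**Figure D1:**
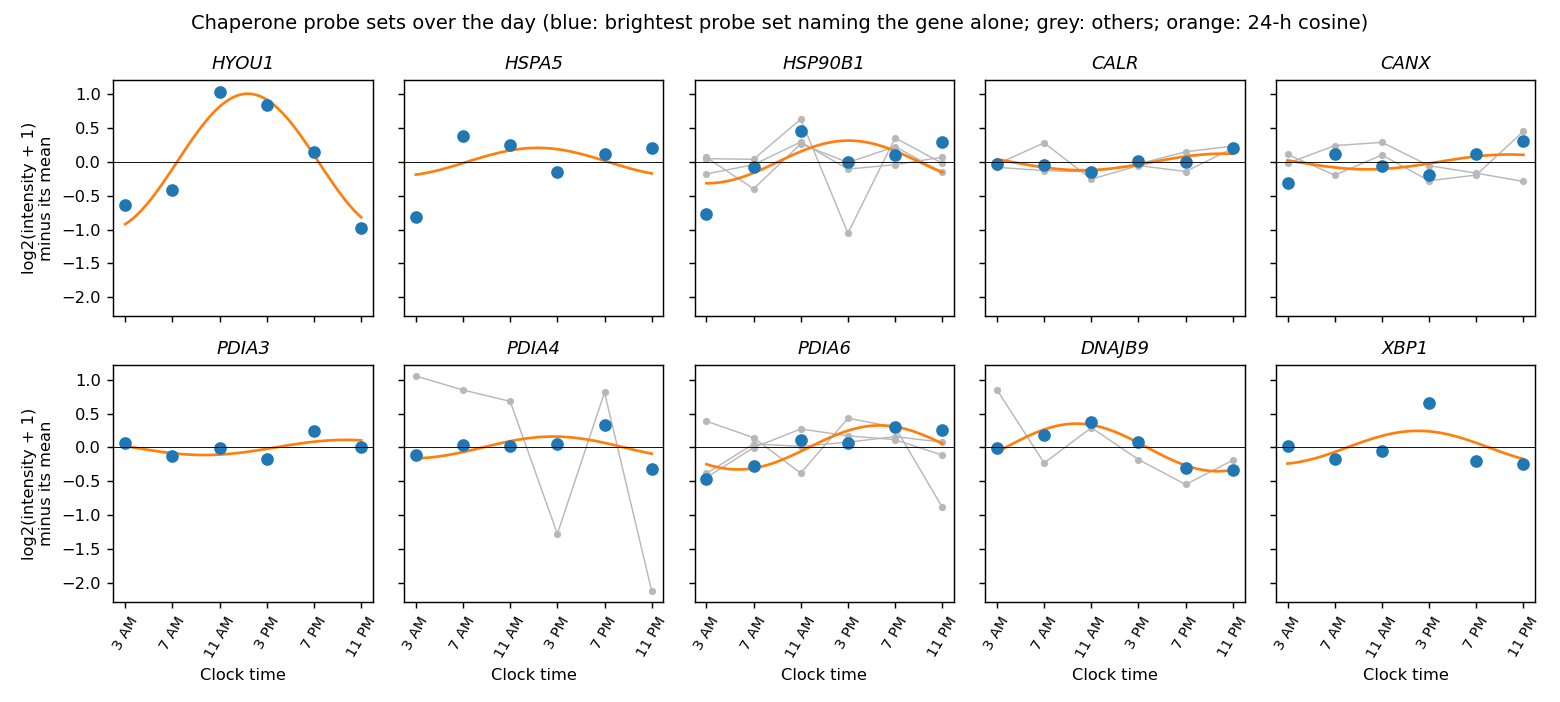
Log2(intensity + 1) minus its mean over the 6 arrays (vertical axis) by clock time (horizontal axis) for the 10 genes; blue points are the brightest probe set that names the gene alone, grey points and lines the gene's other probe sets, and orange lines the fitted 24-h cosine. HYOU1 spans 2.00 on this log2 scale, and the next widest blue series, HSP90B1 and HSPA5, span 1.23 and 1.20 through their low 3 AM value.

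None of the other 9 genes had a 24-h curve past the test. Each was represented by its brightest probe set that names that gene alone, and all 9 passed the filter on level, a mean log2 of at least 7.30. By limma's moderated F test 0 of the 9 had an adjusted p under 0.05 and 0 an unadjusted p under 0.05. Over all 7164 genes tested 0 (0%) passed after adjustment and 398 (5.56%) unadjusted, so a count of 0 in 9 genes lies near the background. The ordinary F test, without limma's pooling of error, also gave 0 of 7164 after adjustment, 412 unadjusted, and 1 of the 9 unadjusted, DNAJB9. Their fitted log2 differences ran from 0.22 to 0.70 with a median of 0.41 against a median of 0.43 over all genes tested. HYOU1 exceeded the median of the 9 by 1.60 and the largest of them by 1.31 on the log2 scale, a difference that follows from how HYOU1 was chosen and was not tested.

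HSPA5, the Hsp70 protein on which HYOU1 acts, was lowest at 3 AM. Its intensity was 1138 at 3 AM, 2623 at 7 AM, 2393 at 11 AM, 1814 at 3 PM, 2189 at 7 PM and 2321 at 11 PM. Apart from the 3 AM array the values lay within a narrow band, and the 7 AM array, where HYOU1 was still low, was the highest. The fitted peak at clock hour 13.3 ± 4.19 (SE) fell at the same hour as that of HYOU1, but the cosine took up little of the variation (R2 = 0.134, log2 difference 0.41 ± 0.46, SE; limma adjusted p = 0.952). The log2 difference was 0.70 without the 7 AM array, 0.84 without 3 PM and 0.88 without 11 PM. Without the 3 AM array the fitted peak moved to clock hour 4.38. The 3 AM array also had the lowest hybridisation controls and the lowest sum of chromaffin markers, and the part of either in these values was not tested.

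HSP90B1, the Hsp90 protein of this compartment, had a similar low value at 3 AM on the probe set used for it, though not on all its sets. The probe set used for the gene read 332 at 3 AM, 538 at 7 AM, 782 at 11 AM, 566 at 3 PM, 611 at 7 PM and 696 at 11 PM. Its highest array was that of HYOU1, but 11 PM, the lowest for HYOU1, was its second highest. The log2 difference was 0.63 ± 0.41 (SE; limma adjusted p = 0.894), and it was 0.02 without the 3 AM array and 1.06 without either the 3 PM or the 11 PM array.

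The other probe sets of HSP90B1 gave a mixed picture. The set 216450_x_at ran from 326 at 7 AM to 518 at 11 AM. A pair of probe sets, 200599_s_at and 200598_s_at, is annotated to both HSP90B1 and the microRNA gene MIR3652 and was kept out of the gene's value. The first was highest at 11 AM (5436) and lowest at 3 PM (1691), and the second ran from 1291 at 3 AM to 1792 at 11 AM. The first is the brightest set of the gene. Its fitted peak was at clock hour 4.68 and its r with HYOU1 -0.09, against 15.1 and 0.42 for the set used. All 4 probe sets were highest at 11 AM, whereas the lowest array was 3 AM, 7 AM or 3 PM. Their fitted log2 differences lay between 0.18 and 0.63.

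The lectin chaperones CALR and CANX had small fitted differences and correlated negatively with HYOU1. CALR (214315_x_at) read 4005 at 3 AM, 3961 at 7 AM, 3678 at 11 AM, 4118 at 3 PM, 4083 at 7 PM and 4714 at 11 PM. Its lowest array was the highest of HYOU1 and its highest array the lowest of HYOU1, with a whole range of 1.28-fold. The second probe set, 212953_x_at, had the same highest and lowest array (3647 and 2801), and the third, 200935_at, was also lowest at 11 AM (909) but highest at 7 AM (1318). The log2 differences of the 3 sets were 0.24 ± 0.30, 0.38 ± 0.29 and 0.31 ± 0.34 (SE) in the fit to all probe sets. Without the 11 PM array the difference of the first was 0.13.

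CANX (200068_s_at) read 6749 at 3 AM, 9028 at 7 AM, 8033 at 11 AM, 7312 at 3 PM, 9041 at 7 PM and 10377 at 11 PM. It was high at 11 PM and low at 3 AM, although these are neighbouring times. Its log2 difference of 0.22 ± 0.32 (SE) became 0.53 without the 3 AM array, 0.45 without 7 AM and 0.10 without 11 PM. Its probe sets disagreed: 208852_s_at was also highest at 11 PM (2544), while 208853_s_at was highest at 11 AM (1099) and lowest at 11 PM (736). The last of these fitted a cosine closely (R2 = 0.950), with a log2 difference of 0.57 ± 0.29 (SE) and a peak at clock hour 9.23, and did not pass (limma unadjusted p = 0.235, adjusted p = 0.944, all probe sets). The correlation between 200068_s_at and 208853_s_at was -0.32 over the 6 arrays, a description.

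Of the disulphide isomerases, PDIA6 had the largest fitted difference. PDIA3, the partner of CALR and CANX, stayed within 1.33-fold, with 2217 at 3 AM, 1937 at 7 AM, 2094 at 11 AM, 1882 at 3 PM, 2495 at 7 PM and 2115 at 11 PM. Its log2 difference was 0.22 ± 0.27 (SE), and 0.34 without the 11 AM array and 0.36 without 11 PM. PDIA6, which acts together with HSPA5, read 583 at 3 AM, 663 at 7 AM, 863 at 11 AM, 843 at 3 PM, 989 at 7 PM and 960 at 11 PM. It was low on the arrays of the oldest animals, at 3 AM and 7 AM, where HYOU1 was low too. It was high at 7 PM and also at 11 PM, the lowest array of HYOU1, and correlated with age at r = -0.92 over the 6 arrays. Its log2 difference was 0.65 ± 0.29 (SE), with a peak at clock hour 17.7 ± 1.73 (SE; limma unadjusted p = 0.151, adjusted p = 0.849). Age and clock time moved together in these animals and cannot be told apart here.

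The PDIA6 probe sets 208639_x_at and 207668_x_at were also lowest at 3 AM (518 and 339). The latter was highest at 11 AM (558) and was the probe set of the other 9 genes that most resembled HYOU1 (r = 0.80 over the 6 arrays). The remaining set, 208638_at, ran from 107 at 11 PM to 268 at 3 PM. PDIA4, a larger isomerase of the same family, read 262 at 3 AM, 291 at 7 AM, 287 at 11 AM, 293 at 3 PM, 357 at 7 PM and 227 at 11 PM on 208658_at, with a log2 difference of 0.32 ± 0.30 (SE; limma adjusted p = 0.937). Its other set, 211048_s_at, read 46.6 at 3 PM, 25.5 at 11 PM and between 184 and 239 at the remaining times. That set lay below the filter on level, and its log2 difference of 1.76 ± 1.31 (SE) did not pass (limma unadjusted p = 0.460, adjusted p = 0.956, all probe sets).

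DNAJB9, a cochaperone that hands HSPA5 to the stress sensor IRE1 and is a target of spliced XBP1, came nearest to the threshold. Its intensity was 424 at 3 AM, 485 at 7 AM, 550 at 11 AM, 452 at 3 PM, 346 at 7 PM and 337 at 11 PM. It shared its highest and lowest arrays with HYOU1, stood above its own mean already at 7 AM, and spanned 1.64-fold where HYOU1 spanned 4.00-fold. The cosine fitted closely (R2 = 0.968), with a log2 difference of 0.70 ± 0.25 (SE) and a peak at clock hour 9.74 ± 1.37 (SE; limma unadjusted p = 0.0682, adjusted p = 0.836). By the ordinary F test the unadjusted p was 0.00574 and the adjusted p 0.846. Age correlated with DNAJB9 at r = 0.60. The second probe set, 202843_at, ran from 35.5 at 7 PM to 95.2 at 3 AM, below the filter on level.

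XBP1, the transcription factor made active when IRE1 splices its RNA, stood out on 1 array. It read 328 at 3 AM, 287 at 7 AM, 311 at 11 AM, 509 at 3 PM, 283 at 7 PM and 273 at 11 PM. Only the 3 PM array was raised, at a time when HYOU1 had passed its highest value, and the other 5 arrays lay close together. The log2 difference was 0.49 ± 0.36 (SE; limma adjusted p = 0.909). It was 0.14 without the 3 PM array, with the peak at clock hour 6.85, 0.83 without 3 AM and 0.74 without 11 AM. The probe set reads the gene's RNA as a whole, so splicing was not measured.

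**Figure D2:**
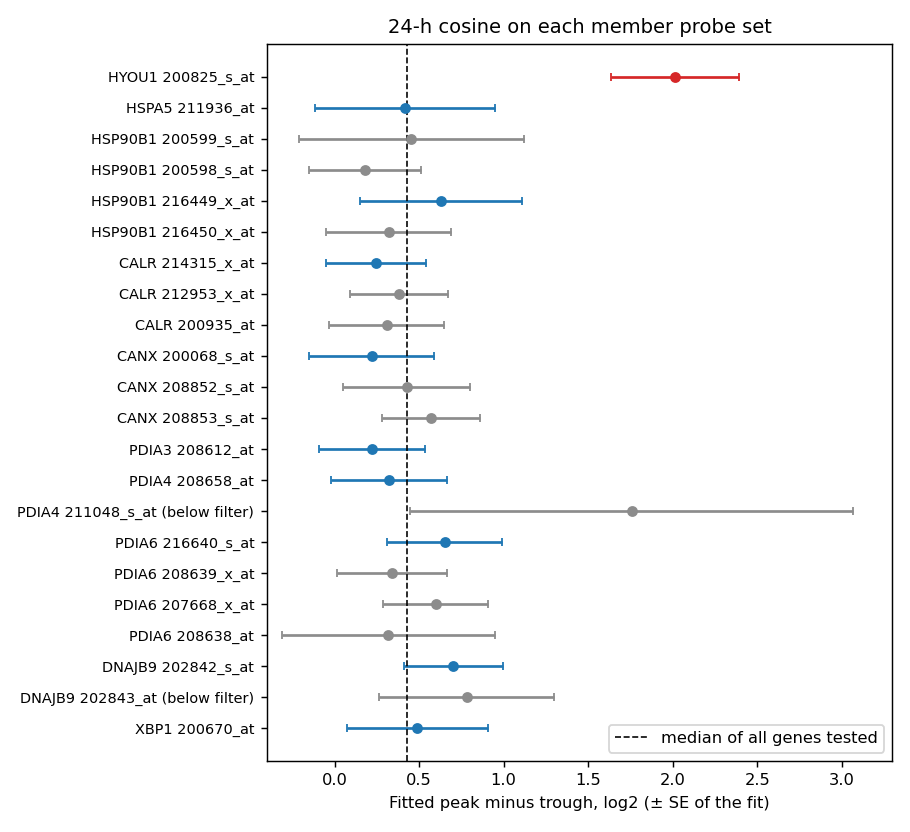
Fitted log2 difference between peak and trough of the 24-h cosine (horizontal axis; bars are ± SE of the fit to all probe sets, 6 arrays) for each of the 22 probe sets; HYOU1 is red, the set representing each other gene blue, and the rest grey. The 19 sets of the other genes above the level filter lie at or below 0.70, near the dashed median of all genes tested (0.43). HYOU1 lies at 2.01, and a dim PDIA4 set below the filter at 1.76.

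Fitted to all 22215 probe sets without a filter on level, 0 of the 21 probe sets of the other genes had an unadjusted p under 0.05, against 1141 (5.14%) of all probe sets by limma's moderated F test. Of the 21, 19 passed the level filter, and their log2 differences ran from 0.18 to 0.70. Probe sets of the same gene followed each other loosely: over 20 pairs r had a median of 0.35 and ran from -0.46 to 0.85, with 15 pairs above 0. HYOU1 itself has no second probe set on this array with which its curve could be compared.

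HYOU1 was high relative to each of the other genes at 11 AM and 3 PM and low relative to each at 7 AM and 11 PM. On every array the log2 ratio of HYOU1 to the other gene was taken and its mean over the arrays removed. At 11 AM this value was above 0 for all 9 genes, between 0.57 and 1.18, and at 3 PM it was again above 0 for all 9, between 0.19 for XBP1 and 1.03 for CANX. At 11 PM it was below 0 for all 9, between -1.29 and -0.63, and at 7 AM between -0.80 and -0.14. At 3 AM, where HSPA5 and the set used for HSP90B1 were low themselves, their ratios were 0.19 and 0.14 and the other 7 were below 0, down to -0.70. At 7 PM the ratios split as well, from -0.18 to 0.45, with 6 of the 9 above 0 and those to PDIA3, PDIA4 and PDIA6 below. A cosine fitted to these ratios peaked between clock hours 12.1 and 14.7, with log2 differences from 1.47 for HSP90B1 to 2.19 for CALR. These ratios all hold the same HYOU1 values, so they are not separate evidence.

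**Figure D3:**
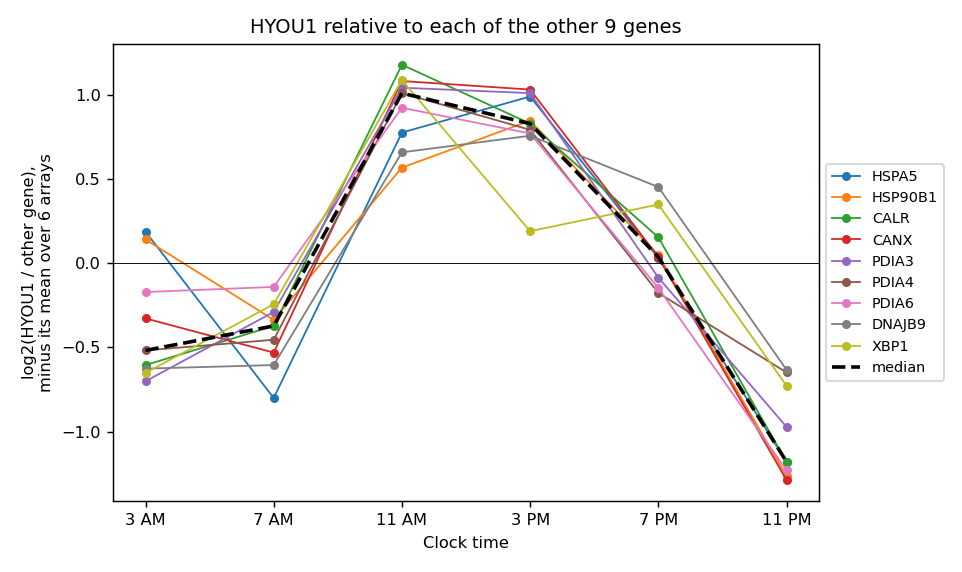
Log2 ratio of HYOU1 to each of the other 9 genes, minus its mean over the 6 arrays (vertical axis), by clock time (horizontal axis); each line is 1 gene and the dashed line their median. The median is 1.01 at 11 AM and 0.83 at 3 PM and falls to -1.18 at 11 PM.

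On these 6 arrays, the sets used for the other 9 genes did not share a daily order of values. Their highest arrays were spread over the day: 3 genes were highest at 7 PM, 2 at 11 PM, 2 at 11 AM and 1 each at 7 AM and 3 PM. The lowest array was 3 AM for 4 genes, 11 PM for 3, and 11 AM and 3 PM for 1 each. Correlations over the 6 arrays are given as a description: among the 36 pairs r had a median of 0.07, from 0.85 for HSPA5 with HSP90B1 and 0.82 for HSP90B1 with PDIA6 down to -0.82 for CALR with DNAJB9. Pairs of probe sets of the same gene had a median r of 0.35, from -0.46 to 0.85. The part of measurement error in either spread was not tested. On the probe sets used for the genes, HSPA5, HSP90B1 and PDIA6 shared their lowest array, 3 AM. Other sets differed: HSP90B1 200599_s_at read 3627 at 3 AM and 1691 at 3 PM, and PDIA6 208638_at 260 at 3 AM and 107 at 11 PM. The part of the 3 AM array in these correlations was not tested. With HYOU1, r was above 0 for 6 genes, the highest being DNAJB9 (0.59), XBP1 (0.56) and PDIA4 (0.55), and below 0 for CALR (-0.65), CANX (-0.39) and PDIA3 (-0.19). A fitted peak within 3 h of that of HYOU1 was found for 4 of the 9, HSPA5, HSP90B1, PDIA4 and XBP1, against 26.4% of all genes; that window was set by HYOU1 and nothing is read from the count.

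Between day (7 AM, 11 AM and 3 PM) and night (7 PM, 11 PM and 3 AM) none of the 9 genes passed limma's test, adjusted or unadjusted. Over all genes 0 of 7164 passed after adjustment; unadjusted, 2.95% were higher and 2.44% lower by day. DNAJB9 had the largest difference of the 9, a log2 value of 0.43 ± 0.19 (SE) higher by day (unadjusted p = 0.0530, adjusted p = 0.894), and PDIA3 the lowest, -0.21 ± 0.18 (SE). Of the 9, 5 had the higher mean by day. These ranks and signs changed when 11 AM, 3 PM and 7 PM were set against the rest: DNAJB9 then had 0.10 ± 0.24, PDIA3 0.04 ± 0.19 and PDIA6, at -0.07 by day, 0.32 ± 0.23 (log2, SE). HSP90B1 was then highest (0.37 ± 0.29) and CALR lowest (-0.09 ± 0.18), and again none of the 9 passed the unadjusted threshold. HYOU1 had a mean log2 of 10.19 by day and 9.22 at night, a difference of 0.97 ± 0.42 (SE, 3 arrays against 3) given without a test, and its groups overlapped, since 7 AM lay below 7 PM. With 3 arrays against 3 an exact test cannot go below 0.1. In limma's fit without the 3 AM array DNAJB9 passed the unadjusted threshold in this contrast (log2 0.53; unadjusted p = 0.0352, adjusted p = 0.802).

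Genes around these chaperones were taken from 7 lists covering the rest of the folding and secretory pathway. Of 95 genes listed, 85 were on probe sets that name them alone and 76 were tested, of which 0 passed after adjustment and 1 (1.32%) unadjusted by limma's moderated F test, below the 5.56% of all genes tested. Their median log2 difference was 0.36, against 0.43 over all genes. A fitted peak within 3 h of that of HYOU1 was found for 21 of the 76 (27.6%), near the 26.4% of all genes. The 1 gene past the unadjusted threshold was ASNS, asparagine synthetase, a target of the stress factor ATF4. It read 154 at 3 AM, 186 at 7 AM, 111 at 11 AM, 74.6 at 3 PM, 238 at 7 PM and 338 at 11 PM, with a peak near clock hour 24 that was 3.00 times the trough (log2 1.58 ± 0.51, SE; limma unadjusted p = 0.0434, adjusted p = 0.836). ASNS was thus lowest at 3 PM and highest at 11 PM, and was also lower by day (log2 -0.999 ± 0.378, SE; unadjusted p = 0.0273).

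A list of HSPA5 cofactors and other folding genes, which includes J-domain proteins and exchange factors, had 8 tested genes. Their median log2 difference was 0.40. HSPA13, an Hsp70 protein of microsomes, read 250 at 11 AM, 247 at 3 PM and between 175 and 233 at the remaining times, a log2 difference of 0.52 ± 0.26 (SE) with a peak at clock hour 15.1. CNPY2 peaked at clock hour 6.81 with a log2 difference of 0.89 ± 0.35 (SE). Neither passed.

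Oxidative folding enzymes and prolyl isomerases had 7 tested genes and a median of 0.44. FKBP14, a prolyl isomerase of collagen folding, was closest to HYOU1 in its timing, with a peak at clock hour 13.4 and intensities of 263 at 3 AM, 278 at 7 AM, 454 at 11 AM, 449 at 3 PM, 288 at 7 PM and 291 at 11 PM. It was high on the same arrays as HYOU1 and low on the other 4, with a log2 difference of 0.82 ± 0.29 (SE; limma unadjusted p = 0.0694, adjusted p = 0.836). PPIB, a cyclophilin of this compartment, had a log2 difference of 0.51 ± 0.31 (SE) with its peak near clock hour 3.08.

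Sugar trimming and quality control had 6 tested genes with a median of 0.40. MAN1B1, a mannosidase, had 0.56 ± 0.30 and GANAB, the catalytic subunit of glucosidase II, 0.45 ± 0.28 (log2, SE). Entry into the compartment, with the translocon, signal peptidase and oligosaccharyltransferase, had 18 tested genes with a median of 0.36. Here DDOST, an oligosaccharyltransferase subunit, peaked at clock hour 8.56 (log2 0.71 ± 0.27, SE) and SSR1, of the translocon, at 4.84 (0.66 ± 0.26). Neither pair passed.

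Retrieval and export had 14 tested genes with a median of 0.34. SEC13, a coat subunit of the vesicles that leave for the Golgi, had a log2 difference of 1.11 ± 0.48 (SE). It was higher by day by 0.87 ± 0.30 (SE, limma unadjusted p = 0.0174). Of the 76 genes tested on the 7 lists it was the 1 higher by day at the unadjusted threshold, against 2.95% of all genes. SEC23A, of the same coat, read 84.6 at 7 PM and between 396 and 600 at the remaining times, and its log2 difference of 1.70 ± 0.77 (SE) did not pass. Degradation of misfolded protein had 9 tested genes with a median of 0.28. None of them peaked within 3 h of HYOU1, against 26.4% of all genes, and nothing is read from so small a count. UBE2J1, a ubiquitin-conjugating enzyme, had 0.65 ± 0.31 and UFD1, a cofactor of the ATPase VCP, 0.36 ± 0.30 (log2, SE).

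Sensors and factors of the unfolded protein response had 14 tested genes, with a median of 0.47. Besides ASNS, MBTPS2, the protease that releases ATF6, had the smallest p and ran against HYOU1, from 263 at 3 PM to 434 at 11 PM (log2 0.58 ± 0.27, SE; not past the test). Cytosolic heat shock genes, listed for comparison, had 10 tested and 1 past the unadjusted threshold, against 5.56% of all genes, a count near the background. This was HSPH1, the cytosolic relative of HYOU1, which read 725 at 3 AM, 940 at 7 AM, 1223 at 11 AM, 990 at 3 PM, 730 at 7 PM and 548 at 11 PM. HSPH1 was highest and lowest on the same arrays as HYOU1, with a peak at clock hour 11.2 that was 2.06 times the trough (log2 1.04 ± 0.26, SE; limma unadjusted p = 0.0119, adjusted p = 0.836). DNAJA1, a cytosolic J-domain protein, was high at 11 AM (869) and 3 PM (809) against 424 to 512 elsewhere, with a log2 difference of 0.85 ± 0.35 (SE), and did not pass.

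**Figure D4:**
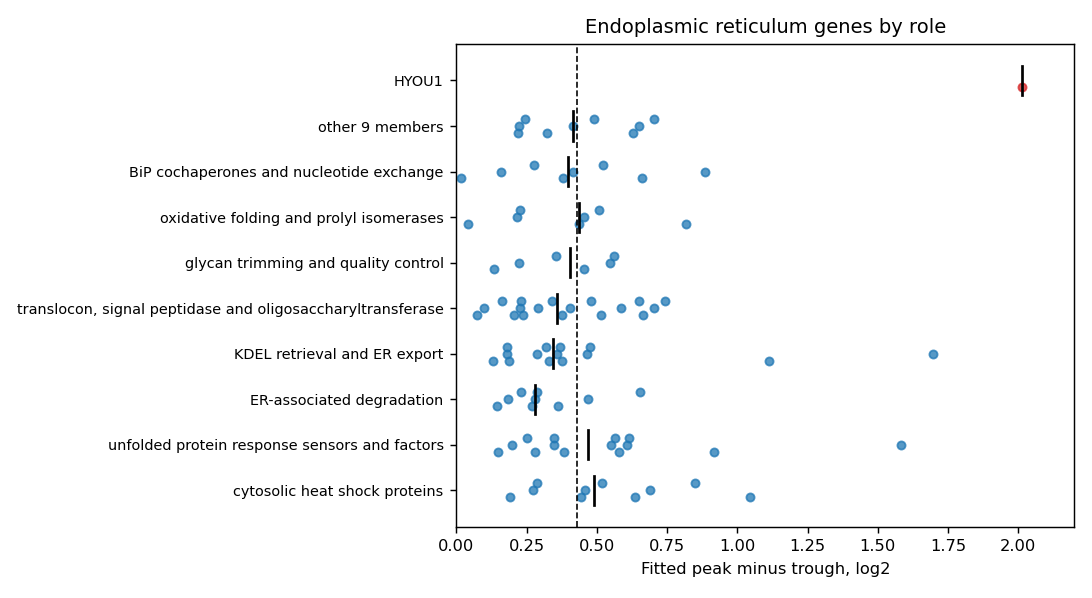
Fitted log2 difference between peak and trough (horizontal axis) for each tested gene, by role (rows); points are genes, short bars the median of a row, and the dashed line the median of all genes tested. HYOU1 lies at 2.01, and the points nearest to it are SEC23A at 1.70 and ASNS at 1.58.

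The genes whose pattern was most like that of HYOU1 were sought among all 7164 by Pearson correlation over the 6 arrays, a description that picks the extremes of many genes; 58 genes had r above 0.9. The 5 highest were TRPM3 (0.99), GRM7 (0.99), NPEPPSP1 (0.97), IL19 (0.97) and SUGP2 (0.97), and none of these 5 is on the pathway lists. On those lists SSR4, a translocon-associated subunit, had r = 0.93, with a log2 difference of 0.20 ± 0.25 (SE), and HSPA13, FKBP14 and SRP54 (the last of the signal recognition particle) had r of 0.90, 0.89 and 0.88; SSR4 and SRP54 were named after their values were seen. TRPM3, GRM7, NPEPPSP1, IL19 and SUGP2 all had smaller fitted differences than HYOU1, with log2 differences from 0.42 for TRPM3 to 0.86 for GRM7. SUGP2, for example, read 505 at 3 AM, 512 at 7 AM, 705 at 11 AM, 757 at 3 PM, 639 at 7 PM and 456 at 11 PM.

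Markers of the cell types a whole adrenal can hold were summed on each array. Cortical markers (8 of 9 found, all above the level filter) ran from 54555 at 3 AM to 82180 at 7 PM, and chromaffin markers (8 of 9 found, 7 above it) from 15149 at 3 AM to 39030 at 7 AM. Plasma cell markers, of a cell type rich in this compartment, had 4 of 9 above the filter and ran from 1250 at 11 AM to 1709 at 7 AM, lowest on the array where HYOU1 was highest. Sums ran from 13279 to 16482 for fibroblast and capsule (5 of 6 above the filter), 2007 to 3447 for endothelial (5 of 6), 1182 to 1526 for macrophage (4 of 6), 3420 to 8654 for smooth muscle (5 of 6), 1588 to 4166 for adipocyte (3 of 6) and 1501 to 2700 for red blood cell markers (1 of 4). The sum of red blood cell markers (2 of 4 found) was highest at 11 AM and lowest at 11 PM, as HYOU1 was. At 3 PM, the second highest array of HYOU1, it was 1640, below its values at 3 AM, 7 AM and 7 PM. The 1 gene of that list that was tested did not peak within 3 h of HYOU1. Gene by gene, all 7 chromaffin markers tested had a fitted peak within 3 h of HYOU1 and a higher mean by day, 3 of them past limma's unadjusted threshold by day, against 26.4% of all genes with such a peak and 2.95% past the threshold by day. Their mean log2 level correlated with HYOU1 at r = 0.46 over the 6 arrays. The chromaffin sum was highest at 7 AM, when HYOU1 was still low. None of the 8 cortical markers peaked within 3 h of HYOU1. The part of cell makeup in the HYOU1 curve was not tested.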

How the data were processed

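The authors deposited, for every array, the intensity of 22283 probe sets, 68 of them controls, as linear values from 0.1 to 40394. Each array's trimmed mean is near 325.1, so the values had been scaled; the sources used here name neither software nor summary method. Values were converted to log2(value + 1), and fitted peak-to-trough ratios are on that scale. Folds between the highest and lowest array are ratios of the deposited intensities. A gene was read from its brightest probe set naming it alone, kept where its mean reached the median of all probe sets: 7164 of 11963 genes. A 24-h cosine was fitted with limma 3.58.1 in R 4.3.3, tested by its moderated F test (Benjamini-Hochberg over all genes tested, threshold 0.05), with 3 residual degrees of freedom. Errors are standard errors of the fit. Day and night were compared with limma. The members and lists were chosen with earlier results of these data known.

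Named genes are the members, the 2 genes with the smallest p of each list, the 5 most like HYOU1 and 4 adrenal markers. The number of arrays limits the precision. With 1 animal per time, errors mix animals and arrays. No sequences were used here.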

Additional observations from a re-analysis of the deposited data

How the results depend on the processing

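HYOU1 exceeded the median of the other 9 genes by 1.60 (log2 peak-to-trough difference), and by 1.40 to 1.90 in 15 alternatives. Leaving out each array gave 1.41 to 1.90. Without the 3 AM and 3 PM arrays it was 2.28, a fit added after seeing the data. Other level filters, fitting every probe set and other error estimates cannot alter the fitted curve of HYOU1, and gave 1.60 again. The stricter level filter kept 7 of the 9 genes, so its median and its counts below are over these 7. The gap follows from how HYOU1 was chosen, so nothing is read from its persistence. Genes past adjustment in the cosine fit numbered 0, except 1 with the stricter level filter, where 3804 were tested. The unadjusted counts of 398 and, for day against night, 386 became 621 and 605 when every gene was kept and 244 and 256 at the stricter level filter, where other numbers of genes were tested; day against night gave 0 to 1 after adjustment when leaving out each array. Of the 9 genes 1 passed the unadjusted cosine threshold with the stricter filter and by the ordinary F test (DNAJB9), and 1 with age as a covariate (HSP90B1, log2 3.41 against an observed range of 1.23). In the day contrast DNAJB9 was the 1 gene of the 9 to pass the unadjusted threshold. It did so with the stricter filter, under quantile normalization and without both the 3 AM and 3 PM arrays (limma adjusted p from 0.731 to 0.861). It also passed by the ordinary test (adjusted p = 0.897). Leaving out each array gave 0 to 1 genes. The 1 gene of the pathway lists became 2 when every gene was kept, 0 at the stricter filter and under quantile normalization, 3 by the ordinary F test, 4 with age as a covariate, 0 to 3 leaving out each array, and 4 without both arrays. Apart from the numbers of genes and arrays, the cause was not tested. Under all 16 alternatives the fitted peak of HYOU1 stayed within 6 h of its place, and that of HSPA5 moved further in 3. Settings that change only the filter or the error estimate cannot move a fitted peak. HYOU1 was also chosen for its curve, so nothing is read from this contrast. No paired analysis was possible because the 6 adrenals came from separate animals at separate times. Dim probe sets are limited by the level filter alone.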
